A study of Arabidopsis thaliana with 6 samples.

Results

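RNA that precipitated with DCL4-6:FHA, a tagged form of the Arabidopsis ribonuclease DCL4, was compared between flowers and seedlings. The comparison uses 2 of the 6 libraries of the series, 1 library of flowers and 1 of seedlings, chosen by the line and tissue of their labels. In both, DCL4-6:FHA was expressed from the DCL4 promoter in plants homozygous for the dcl4-2 mutation, ecotype Columbia, so the mutation and the transgene are common to both sides. Untagged wild type plants (WT, Col-0) of each tissue, 1 library each, served as background, and libraries of a second tagged form, DCL4-8:FHA in dcl4-2, are quoted only as side values. Whether plants were pooled and how many independent transgenic lines stand behind DCL4-6:FHA is not stated in the labels. The labelled tissue could not be checked against marker genes, because the 10 loci with values are noncoding precursors and hold none.

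DCL4 is the Dicer of plants that makes 21 nt small interfering RNAs from long double-stranded precursors. One class of its substrates consists of transcripts that fold back on themselves, such as the long inverted repeats IR71 and IR2039 and the hairpin of miR822, a microRNA precursor known to depend on DCL4. The other class consists of the TAS transcripts. A microRNA directs cleavage of a TAS transcript, RDR6 copies a cleavage fragment into double-stranded RNA, and DCL4 cuts it in a register set by the cleavage point. miR173 directs cleavage of TAS1a, TAS1b, TAS1c and TAS2, miR390 acts on TAS3a and TAS3b, and miR828 on TAS4. All are noncoding RNA genes: AT2G27400 (TAS1a), AT2G39675 (TAS1c) and AT2G39681 (TAS2) on chromosome 2, AT1G50055 (TAS1b) on chromosome 1, AT3G17185 (TAS3a) and AT3G25795 (TAS4) on chromosome 3, and AT5G49615 (TAS3b) on chromosome 5. The tables run over 11721538 to 11722467 for TAS1a, 18549203 to 18550041 for TAS1b, 16537287 to 16538276 for TAS1c and 16539383 to 16540416 for TAS2. For TAS3a they cover 5861490 to 5862436, for TAS3b 20134199 to 20134785 and for TAS4 9417550 to 9418704.

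The sequences on which the positions below rest were read from the RefSeq assembly TAIR10.1. The mature microRNAs are given with the seed, bases 2 to 8, in capitals. miR173-5p starts the TAS1 and TAS2 pathway, miR390a-5p acts on TAS3, and miR822-3p and miR822-5p are the products of the hairpin.
miR173-5p: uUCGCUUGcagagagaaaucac
miR390a-5p: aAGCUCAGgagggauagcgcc
miR822-5p: uGCGGGAAgcauuugcacaug
miR822-3p: uGUGCAAAugcuuucuacagg
The matching sites in the transcripts are shown in the sense direction, with bases that form A:U or G:C pairs with the microRNA in capitals. Only these are counted as pairs, and bases that could form a G:U pair are in lower case. The TAS2 site lies on chromosome 2, 16539991 to 16540012, minus strand, and pairs at 20 of 22 bases. The 5′ site of TAS3a lies on chromosome 3, 5862099 to 5862119, plus strand, and pairs at 16 of 21 bases.
TAS2 site: GTGATTTtTCTCTcCAAGCGAA
TAS3a 5′ site: GGtGtTATCCtatCTGAGCTT

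The 10 loci held 3243 reads of a library of 15786416 reads in flowers, against 4241 reads of 17781670 in seedlings. Per 1000000 library reads that is 205.4 in flowers and 238.5 in seedlings, a ratio of 0.861. WT had 9 reads in flowers, from a library of 15861072 reads, and 16 in seedlings, from only 1961876 reads. These library totals were worked out from the scale of the values. Reads of 50 nt explained all but 0.234% of the coverage in flowers and all but 0.169% in seedlings, so the position of single reads could be recovered. The coverage does not give the strand of a read. Where a read is said to begin or start, it is taken as a sense read. Intervals below are 95% intervals. They count each read as independent and cover counting error alone, not variation between plants. Without molecular identifiers copies of a molecule cannot be recognised, so the intervals may be too narrow. With 1 library per tissue no difference has a replicate check or a test.

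IR71 led the fold-back transcripts in both tissues, with a smaller share in flowers, and IR2039 held a larger share in flowers. IR71 made up 42.3% of the reads of the 10 loci in flowers (interval 40.6 to 44.0), against 63.5% in seedlings (62.1 to 65.0). IR2039 made up 22.8% in flowers (21.4 to 24.3), against 7.59% in seedlings (6.81 to 8.43). miR822 held 16.5% in flowers (15.2 to 17.8), against 12.9% in seedlings (11.9 to 14.0). The order of these 3 loci therefore differed: IR71, IR2039 and miR822 in flowers, but IR71, miR822 and IR2039 in seedlings. Taken as a class, the fold-back loci held 81.6% of the reads in flowers and 84.1% in seedlings, with an odds ratio of flowers over seedlings of 0.837 (0.741 to 0.947). This class ratio was small beside the opposite moves of its members, and with reads of several genome places divided among those places its interval included 1 (78.3% in flowers and 79.4% in seedlings).

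Among the TAS loci, those bound by miR390 held a larger share in flowers and TAS1a a smaller one. TAS3a, whose small RNAs repress auxin response factors, had 4.72% of the reads in flowers (4.01 to 5.51), from 153 reads, against 1.32% in seedlings (0.999 to 1.71), from 56 reads. TAS3b had 26 reads in flowers, 0.802%, against 2 reads in seedlings, 0.0472%. The miR173 loci did not move together. TAS1a had 31 reads, 0.956%, in flowers and 85 reads, 2.00%, in seedlings. TAS1b had 30 reads in flowers and 19 in seedlings, TAS1c 53 in flowers and 49 in seedlings, and TAS2 305 in flowers and 464 in seedlings. TAS2, which yields small RNAs against transcripts of the pentatricopeptide repeat family, was the most abundant TAS locus in both tissues, with 9.41% of the reads in flowers and 10.9% in seedlings. TAS4, the miR828 locus that targets MYB transcripts, had 0 reads in both, which allows a share of up to 0.0925% in flowers and 0.0707% in seedlings.

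**Figure D1:**
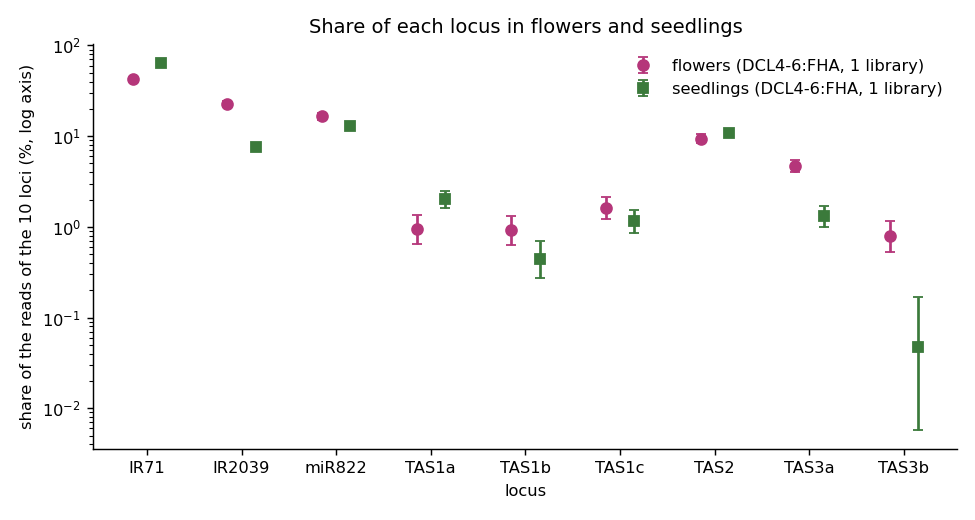
Share of each locus in the reads of the 10 loci (percent, log axis) in DCL4-6:FHA flowers (circles, left of each pair) and seedlings (squares, right), with exact 95% binomial intervals of counting error; TAS4 had 0 reads. IR71 is lower in flowers, 42.3% against 63.5%, while IR2039 and TAS3a are higher.

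A locus was called higher or lower in share where the interval of the odds ratio, flowers over seedlings, excluded 1. By this rule 5 of the 9 loci with reads (55.6%) were higher in flowers and 3 (33.3%) were lower. IR2039 had an odds ratio of 3.59 (3.12 to 4.15), TAS3a of 3.70 (2.70 to 5.14) and TAS3b of 17.1 (4.28 to 149). miR822 stood at 1.33 (1.16 to 1.51) and TAS1b at 2.08 (1.13 to 3.91). On the lower side IR71 had 0.421 (0.383 to 0.463), TAS1a 0.472 (0.301 to 0.722) and TAS2 0.845 (0.723 to 0.987). TAS1c, at 1.42 (0.943 to 2.15), was not told apart.

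Shares of a fixed total are tied to each other, and IR71 alone weighed heavily in the seedling total. With IR71 left out of the total, miR822 turned from higher to lower in flowers, with 28.5% of the remaining reads in flowers and 35.5% in seedlings, and the fold-back class turned from lower to higher, with 68.0% in flowers and 56.3% in seedlings. The mean coverage per base, scaled to 1000000 library reads (RPM), does not depend on the other loci. On that scale 3 of 9 loci (33.3%) were higher in flowers and 3 (33.3%) lower, and the median ratio of the 7 loci with at least 20 reads in both tissues was 1.10. IR2039 (1.15 RPM in flowers, 0.443 RPM in seedlings), TAS3a (0.512 RPM in flowers, 0.166 RPM in seedlings) and TAS3b (0.140 RPM in flowers, 0.00958 RPM in seedlings) were higher by both measures. IR71 (0.621 RPM in flowers, 1.08 RPM in seedlings), TAS1a (0.106 RPM in flowers, 0.257 RPM in seedlings) and TAS2 (0.934 RPM in flowers, 1.26 RPM in seedlings) were lower by both. With the highest coverage of a locus in place of its sum, IR71 was not told apart in share or level, and with each distinct read position counted once TAS2 was not told apart and turned to the higher side. miR822 had the highest level per base of all 10 loci in both tissues, 5.02 RPM in flowers and 4.58 RPM in seedlings, and its ratio of 1.10 (0.971 to 1.24) was not told apart from 1. The larger miR822 share in flowers thus went with a total of the other loci that was smaller there.

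**Figure D2:**
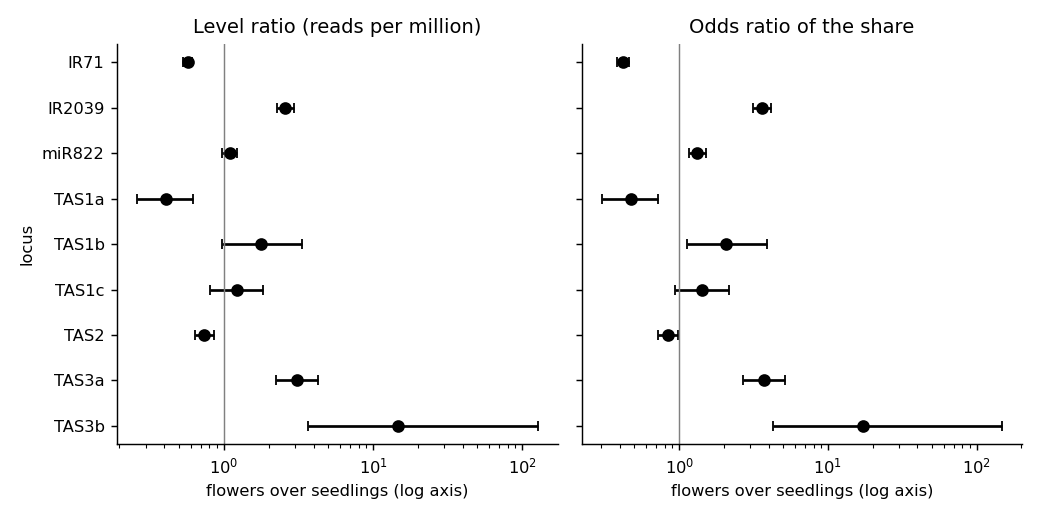
Ratio of the level (left) and odds ratio of the share (right) of each locus, DCL4-6:FHA flowers over seedlings, on log axes, with exact 95% counting intervals; the line marks 1. IR2039, TAS3a and TAS3b lie above 1 and IR71, TAS1a and TAS2 below 1 in both panels, and miR822 leaves 1 only in share.

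Background limits what can be read from the smallest loci. Scaled to the depth of the DCL4-6:FHA seedling library, the WT seedling reads correspond to 36.3 reads at TAS1b, 27.2 at TAS1a, TAS2 and miR822, 18.1 at IR2039 and 9.06 at TAS1c. TAS1b with 19 reads in seedlings, TAS1c with 49 and TAS3b with 2 were therefore not told apart from WT there, and the interval of TAS1a over WT, 1.03 to 15.5, nearly included 1. In flowers the scaled WT reads were at most 2.99 at any locus. With the WT reads subtracted, IR71 alone was still called lower in share, and TAS1c took the place of TAS1b among the 5 higher loci. TAS1a and TAS2 kept odds ratios below 1 but were not told apart. Each WT value rests on at most 4 reads. More transcript in a tissue and better recovery from it cannot be told apart in these libraries.

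With DCL4-8:FHA, IR71 went the other way in share and level, and miR822 in its share of the 10 loci. With that form the IR71 level was 8.23 times as high in flowers as in seedlings and the odds ratio of the miR822 share was 0.212, whereas IR2039, TAS3a and TAS3b were again higher in flowers and TAS1a and TAS2 again lower. Whether the forms differ was not tested.

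Flowers and seedlings had reads on largely the same parts of each locus. Coverage was summed in 50 nt bins as a percent of the locus, and the overlap is the sum over bins of the smaller percent. Among the 7 loci with at least 20 reads in both tissues the overlap of flowers and seedlings ran from 79.7% at TAS1c to 93.6% at TAS3a, with a median of 84.9%. It was 87.7% at TAS2, 85.0% at miR822, 84.9% at IR71, and 82.6% at both IR2039 and TAS1a. Within flowers the overlap of DCL4-6:FHA with DCL4-8:FHA ran from 78.7% at TAS1a to 93.3% at TAS3a over the same loci. Pearson's r over bins, a description since neighbouring bins share reads, ran from 0.898 at IR2039 (41 bins) to 0.992 at TAS3a (19 bins). TAS1b had 19 reads in seedlings and TAS3b 2, too few for a comparison of profiles.

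The miR822 hairpin differed between the tissues in how its reads were divided between the 2 sides. The locus lies on chromosome 5, 897019 to 897355, at the MIR822 gene AT5G03552 on the minus strand, inside the protein-coding gene AT5G03553 of the opposite strand. Reads on the 3′ side of the hairpin made up 61.9% in flowers (57.6 to 66.0, of 535 reads) and 76.8% in seedlings (73.0 to 80.2, of 551 reads). Reads that spanned every base of miR822-3p made up 47.9% in flowers (43.5 to 52.2) and 69.3% in seedlings (65.3 to 73.2), an odds ratio of 0.406 (0.314 to 0.524). Reads that held some but not all bases of it were more frequent in flowers, 14.0% against 7.26% in seedlings. Reads that spanned all of miR822-5p were rare, 9 in flowers and 9 in seedlings.

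The difference came down to a few read positions. The most used read of seedlings, at 897045 to 897094, begins 7 nt before miR822-3p in the sense direction and had 63 of 535 reads in flowers (11.8%) and 124 of 551 in seedlings (22.5%). The most used read of flowers, at 897228 to 897277, lies on the 5′ side, begins 9 nt after the end of miR822-5p and had 79 reads in flowers (14.8%) and 34 in seedlings (6.17%). They are printed in the sense direction with the bases of miR822-3p in capitals.
miR822 leading read of flowers: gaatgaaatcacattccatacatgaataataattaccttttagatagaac
miR822 leading read of seedlings: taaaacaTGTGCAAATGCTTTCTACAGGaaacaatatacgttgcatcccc
The positions themselves were largely common to both tissues. Of 66 distinct read positions in flowers 45 were also seen in seedlings (68.2%), as were 70.3% of the 64 positions of seedlings, and 94.2% of the flower reads and 93.6% of the seedling reads lay at them. With each distinct position counted once, the overlap of the profiles was 93.4% in place of 85.0%. Between bins, 897219 to 897268 had 26.5% of the coverage in flowers and 15.7% in seedlings, and 897069 to 897118 had 28.4% in flowers and 40.1% in seedlings. The highest bin was 897019 to 897068 in flowers and 897069 to 897118 in seedlings. With DCL4-8:FHA the share on the 3′ side was 61.5% in flowers and 54.9% in seedlings, not told apart, while reads that spanned miR822-3p were again less frequent in flowers, 30.2% against 39.4% in seedlings. With that form the read at 897045 to 897094 was also less frequent in flowers, 6.59% against 11.3% in seedlings. The read at 897228 to 897277 was not more frequent in flowers there, with 10.4% (19 reads) against 14.5% (135 reads) in seedlings.

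**Figure D3:**
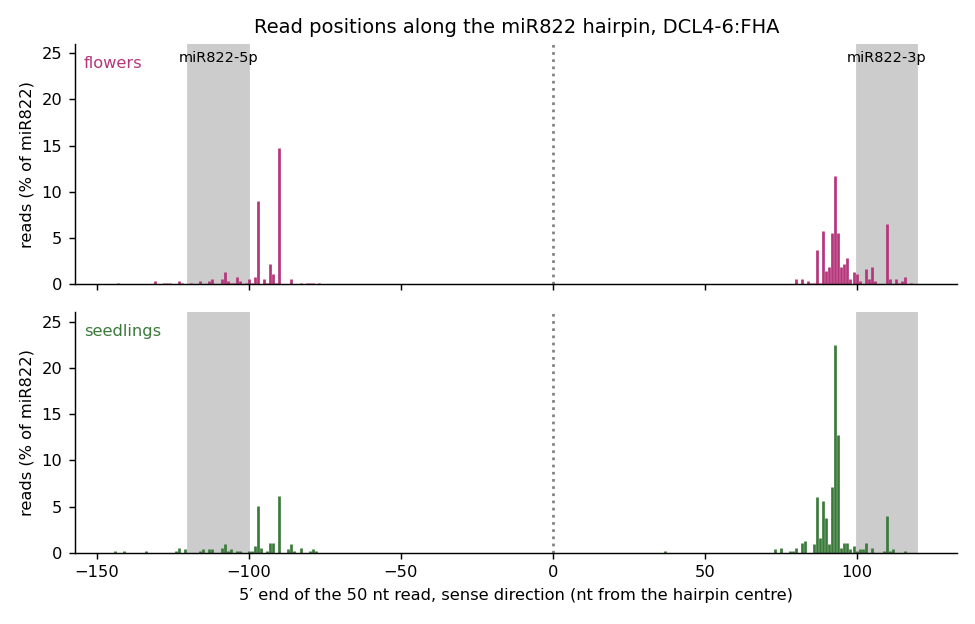
Position of each recovered 50 nt read in the miR822 hairpin, taken as a sense read, against its percent of the reads of the locus. The position is that of the 5′ end, in nt from the hairpin centre in the sense direction, in DCL4-6:FHA flowers (upper) and seedlings (lower). Grey marks the mature microRNAs. Most reads lie at positions used in both tissues, with 14.8% in flowers at the tallest bar of the 5′ side and 22.5% in seedlings at the tallest bar of the 3′ side.

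IR71 is an inverted repeat of chromosome 3, with positions 1963599 to 1970598 in the tables, arms at 1963723 to 1966967 and 1967205 to 1970450 that are 98.9% identical, and a loop of 237 nt. The annotation places the lncRNA genes AT3G01835 and AT3G01845, the noncoding gene AT3G00220 and the protein-coding genes AT3G06435 and AT3G06436 on parts of it. Only 42.8% of its 50 nt stretches occur at a unique place of the genome. Reads of several places made up 69.8% of the IR71 reads in flowers and 70.1% in seedlings, and appear once at each place, so the intervals given above for the share and level of IR71 are narrower than the number of sequenced reads warrants. With such reads divided among their places the share was 32.2% in flowers and 52.8% in seedlings. An example is the leading read of seedlings, whose sequence occurs on both arms. It had 7 reads in flowers and 35 in seedlings on the right arm at 1967259 to 1967308, and 7 in flowers and 34 in seedlings at its mate on the left arm, 1966864 to 1966913. The leading read of flowers, at 1967198 to 1967247 with 24 reads in flowers and 17 in seedlings, has a unique place because its first bases, in capitals, belong to the loop.
IR71 leading read of flowers: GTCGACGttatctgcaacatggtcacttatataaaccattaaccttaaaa
IR71 leading read of seedlings: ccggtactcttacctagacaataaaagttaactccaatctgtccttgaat
No single read dominated IR71, the leading one holding 1.75% of the reads in flowers and 1.30% in seedlings. There were 687 distinct positions in flowers and 1086 in seedlings, or 687 in flowers against 720 in seedlings at an equal number of 1375 reads.

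In IR71 the reads of flowers lay more often between 150 and 250 nt from the loop. With each read divided among its places, 30.8% of 895 reads in flowers and 23.9% of 1752 in seedlings lay within 250 nt of the loop on either arm, an odds ratio of 1.42 (1.18 to 1.71). The first 150 nt held 15.4% in flowers and 14.8% in seedlings, 1.05 (0.829 to 1.32), so the excess sat at 150 to 250 nt, with 15.5% in flowers and 9.08% in seedlings, 1.84 (1.43 to 2.37). The outer stretch at 1200 to 2200 nt from the loop held 39.1% in flowers and 43.4% in seedlings, 0.838 (0.709 to 0.991). These windows, like those used for IR2039, TAS1, TAS2 and TAS3a below, were set after the profiles had been seen. The bin that gained most was 1966699 to 1966748, with 3.23% in flowers and 1.24% in seedlings, and the bin that lost most was 1965199 to 1965248, with 2.18% in flowers and 3.25% in seedlings. The highest bin was 1966799 to 1966848 in flowers and 1967249 to 1967298 in seedlings, both within 250 nt of the loop. Reads with any base in the loop made up 4.36% in flowers and 4.45% in seedlings, an odds ratio of 0.978 (0.642 to 1.47). Reads of a unique place fell on the left arm in 50.8% of cases in flowers and 47.3% in seedlings, with an odds ratio of 1.15 (0.902 to 1.47).

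IR2039, on chromosome 3 at 16158977 to 16161019, has arms of 90.6% identity that overlap the protein-coding genes AT3G44570 and AT3G44580. The alignment of its arms ran through the centre and was split at its midpoint, 16159953, so a short loop there was not looked for. Of its 50 nt stretches 98.0% are unique, so its reads can be placed. The higher level in flowers was not even along the stem. The part at 300 to 500 nt from the centre held 41.8% of 739 reads in flowers (38.2 to 45.5) and 56.7% of 323 reads in seedlings (51.1 to 62.1), an odds ratio of 0.550 (0.418 to 0.722). The 200 nt nearest the centre held 31.9% in flowers and 26.9% in seedlings, not told apart at 1.27 (0.944 to 1.72). The bin with the largest loss was 16159477 to 16159526, 2.42% in flowers and 6.47% in seedlings, and that with the largest gain was 16159877 to 16159926, 10.8% in flowers and 7.28% in seedlings. The latter was also the highest bin of flowers, against 16160377 to 16160426 in seedlings with 12.7%. The left arm held 51.2% in flowers and 57.6% in seedlings, an odds ratio of 0.774 (0.589 to 1.02). The leading read of flowers, at 16159861 to 16159910, had 22 reads in flowers and 7 in seedlings, and that of seedlings, at 16160406 to 16160455, had 16 in flowers and 11 in seedlings.
IR2039 leading read of flowers: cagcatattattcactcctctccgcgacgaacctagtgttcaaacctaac
IR2039 leading read of seedlings: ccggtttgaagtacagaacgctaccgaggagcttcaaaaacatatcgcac
With DCL4-8:FHA the part at 300 to 500 nt held 40.4% in flowers and 38.5% in seedlings.

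**Figure D4:**
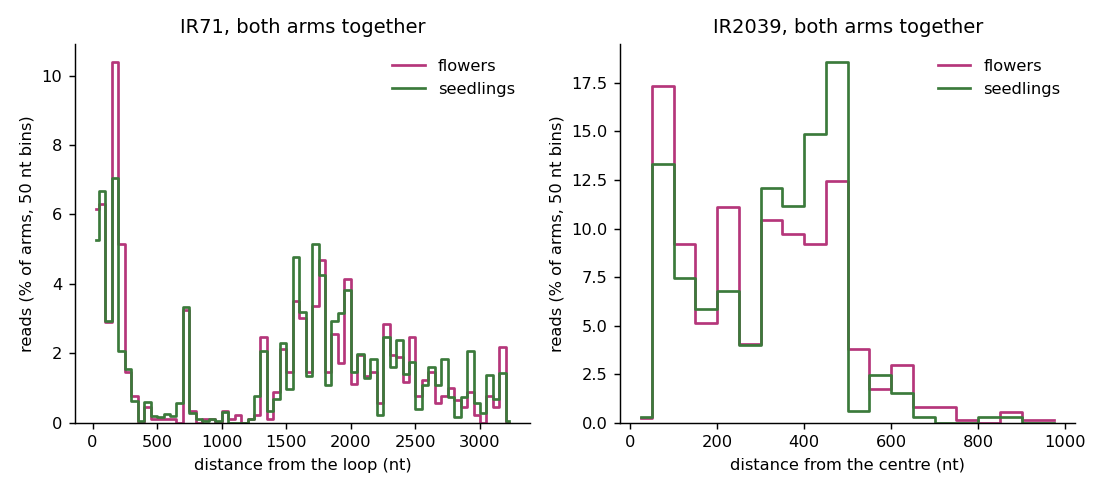
Reads along the stems of IR71 (left) and IR2039 (right) in DCL4-6:FHA flowers and seedlings, with both arms folded together, as percent of the reads of the arms in 50 nt bins against the distance from the loop or centre in nt; reads of several places are divided among them. Flowers exceed seedlings at 150 to 250 nt from the loop of IR71 but not in the first 150 nt, and seedlings exceed flowers between 300 and 500 nt from the centre of IR2039.

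On the miR173 loci the reads of both tissues were all centred 3′ of the cleavage point, which was set opposite bases 10 and 11 of the microRNA, and on average those of seedlings lay closer to it. On average the centre of a read lay 186 nt (SE 10.1, 53 reads) 3′ of that point in flowers and 150 nt (SE 8.81, 49 reads) in seedlings at TAS1c, a difference of 35.3 nt (interval 9.0 to 61.6). At TAS2 the averages were 150 nt in flowers and 144 nt in seedlings, a difference of 6.42 nt (-1.14 to 14.0). At TAS1a they were 188 nt in flowers and 177 nt in seedlings, 10.8 nt (-31.0 to 52.6), and at TAS1b 165 nt in flowers and 153 nt in seedlings, 12.2 nt (-25.9 to 50.3). All 4 loci had the same sign, but the interval excluded 0 at TAS1c only, and with each distinct read position counted once the difference turned to -6.37 nt at TAS2 and -11.8 nt at TAS1a (43.2 nt at TAS1c). The TAS1b and TAS1c reads of seedlings were not told apart from WT. With DCL4-8:FHA, which had more reads, the differences at these loci had the same sign, from 10.8 nt at TAS1b to 30.7 nt at TAS1c, and each interval excluded 0. For that form the differences were not recomputed with each distinct read position counted once.

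The share of reads centred in the first 150 nt 3′ of the cleavage point, counted over the same reads, was smaller in flowers. At TAS2 it was 54.9% in flowers and 64.9% in seedlings, an odds ratio of 0.660 (0.486 to 0.896). Within that stretch the TAS2 coverage went both ways: the first 90 nt held 9.69% in flowers and 4.17% in seedlings, and the next stretch, to 150 nt, 45.4% in flowers and 60.4% in seedlings. At TAS1c it was 17.0% in flowers and 40.8% in seedlings, 0.300 (0.105 to 0.804), and at TAS1a 51.6% in flowers and 69.4% in seedlings, 0.473 (0.187 to 1.20). TAS2 had its highest bin at 16539783 to 16539832 in flowers, with 29.7% there and 25.8% in seedlings, and at 16539833 to 16539882 in seedlings, with 27.7% in flowers and 34.7% in seedlings. For TAS1c the bin 16537787 to 16537836 held 10.7% in flowers and 20.6% in seedlings, and 16537687 to 16537736, the highest of flowers, held 34.4% in flowers and 27.8% in seedlings. The highest bin of seedlings was 16537737 to 16537786. TAS1a had the same highest bin in both tissues, 11721938 to 11721987, with 37.7% in flowers and 43.1% in seedlings. Its bins with the largest gain and loss were 11721838 to 11721887, 8.40% in flowers and 1.70% in seedlings, and 11721988 to 11722037, 9.95% in flowers and 15.5% in seedlings, with intervals that overlapped at this depth. TAS1b had its highest bin at 18549453 to 18549502 in flowers and 18549503 to 18549552 in seedlings. The most used read of TAS1a was at 11721916 in flowers, with 3 reads in flowers and 0 in seedlings, and at 11721923 in seedlings, with 1 read in flowers and 10 in seedlings. That of TAS1b was at 18549457 in flowers, with 5 reads in flowers and 0 in seedlings, and at 18549487 in seedlings, with 1 read in flowers and 4 in seedlings.

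Despite these shifts the leading reads of TAS2 were the same and in the same order. The read at 16539864 to 16539913 came first, with 29 of 306 reads in flowers (9.48%) and 65 of 464 in seedlings (14.0%). The read at 16539860 had 26 in flowers and 51 in seedlings, and that at 16539780 had 23 in flowers and 37 in seedlings. Of the TAS2 reads 85.0% in flowers and 87.7% in seedlings lay at positions found in both tissues. TAS1c also had the same leading read in both, at 16537714 to 16537763, with 10 of 53 reads in flowers and 5 of 49 in seedlings. Both are printed in the sense direction from the miR173 site to the end of the leading read, with the site and the read in capitals, to show how far from the site the reads lie. They begin 87 nt at TAS2 and 136 nt at TAS1c after the base opposite base 10 of miR173.
TAS2: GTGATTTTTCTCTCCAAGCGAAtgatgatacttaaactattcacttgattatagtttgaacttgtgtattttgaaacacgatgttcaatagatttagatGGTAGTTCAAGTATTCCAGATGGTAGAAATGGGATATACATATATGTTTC
TAS1c: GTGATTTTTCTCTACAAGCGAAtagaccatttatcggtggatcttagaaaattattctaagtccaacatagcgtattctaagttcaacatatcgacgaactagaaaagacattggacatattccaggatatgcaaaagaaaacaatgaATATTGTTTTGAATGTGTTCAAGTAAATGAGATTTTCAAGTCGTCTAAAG
These stretches are chromosome 2, 16539864 to 16540012, and chromosome 2, 16537714 to 16537911, both minus strand.

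**Figure D5:**
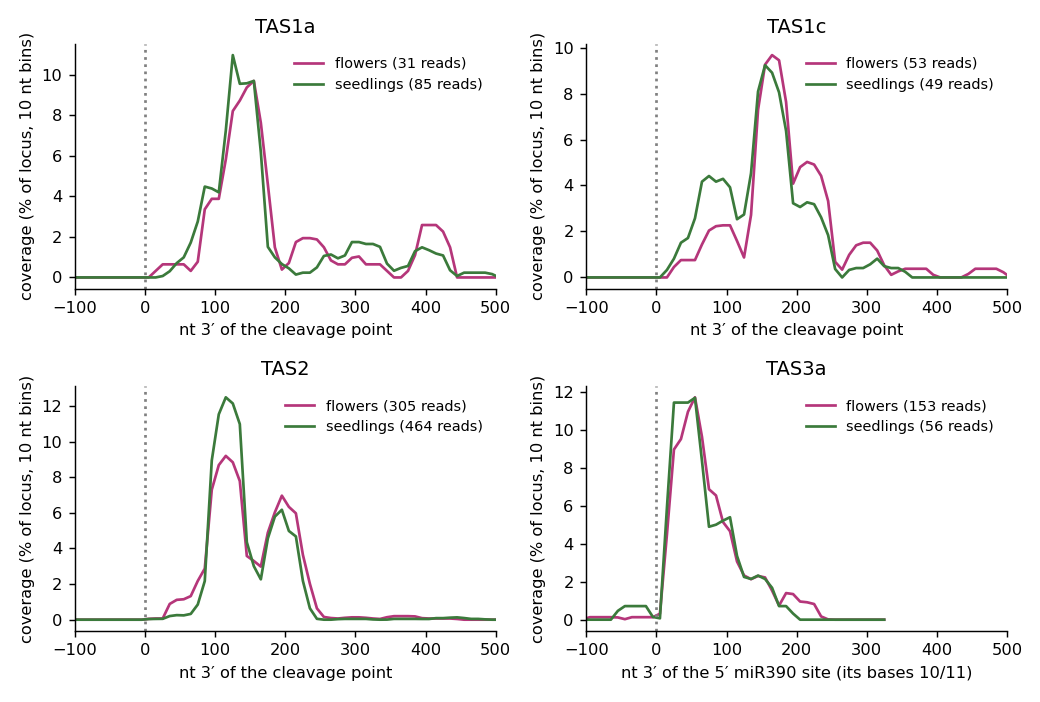
Coverage in 10 nt bins, as percent of the locus, against the distance in nt 3′ of the miR173 cleavage point (TAS1a, TAS1c, TAS2) or of the 5′ miR390 site (TAS3a), in DCL4-6:FHA flowers and seedlings. At TAS3a the distance is counted from the base opposite base 10 of miR390 in that site. The tissues peak at about the same places, and more of the seedling coverage lies within 150 nt of the cleavage point at TAS1c and, from 90 nt on, at TAS2.

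TAS3a had the highest overlap of profiles among the 7 loci, although its level was 3.08 times as high in flowers. Its 5′ miR390 site is known to bind the microRNA without being cleaved, and cleavage takes place at the 3′ site, 5862343 to 5862363. The highest bin was 5862140 to 5862189 in both tissues, with 48.7% of the coverage in flowers and 47.8% in seedlings. The leading read, at 5862123 to 5862172, had 32 of 153 reads in flowers (20.9%) and 12 of 56 in seedlings (21.4%), and led in both DCL4-8:FHA libraries with 20.2% in flowers and 20.9% in seedlings. It begins at the 4th base after the 5′ site, shown here with the site and the read in capitals on chromosome 3, 5862099 to 5862172, plus strand.
TAS3a: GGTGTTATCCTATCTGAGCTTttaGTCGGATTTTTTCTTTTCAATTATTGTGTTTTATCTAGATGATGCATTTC
If it is a sense read, its start lies 231 nt before the base opposite base 10 of miR390 at the 3′ site, which is 11 steps of 21 nt. That number depends on positions being counted from 1. A register of antisense reads was not examined. Other reads hardly used that register: without this start 1.65% of the reads in flowers and 0% in seedlings began in it, while each of the 21 registers would hold 4.76% if all were equal. Reads that began within 10 nt after the 5′ site made up 39.9% in flowers (32.1 to 48.1) and 55.4% in seedlings (41.5 to 68.7), an odds ratio of 0.536 (0.274 to 1.04). The second read of flowers, at 5862176 to 5862225, had 13 reads in flowers and 0 in seedlings. With DCL4-8:FHA it was not more frequent in flowers, with 24 reads (0.397%) against 44 (1.37%) in seedlings. The bins with the largest gain and loss were 5862290 to 5862339, 5.45% in flowers and 1.04% in seedlings, and 5862090 to 5862139, 14.0% in flowers and 18.3% in seedlings, with overlapping intervals. The mean distance of read centres was taken from the base opposite base 10 of miR390 at the 5′ site. It was 74.7 nt in flowers and 63.8 nt in seedlings, a difference of 10.9 nt (-2.68 to 24.4). At TAS3b the 26 reads of flowers lay on average 54.4 nt after the corresponding base of its 5′ site, with 7 of them at 20134497 to 20134546. Its highest bin in flowers was 20134499 to 20134548, and the 2 reads of seedlings were too few to name one.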

How the data were processed

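For each of 10 loci the authors deposited a table of per-base coverage, a signal in RPM, with a column per library. Libraries were single-end reads of 50 nt, per the labels' protocols. Per the submitters' processing notes, bedtools 2.25.0 and HISAT2 2.0.5 were among the tools, without a stated role, and coordinates follow TAIR10. The sources used here do not give the treatment of strands and of reads with several places. Table names that say seeds were read as seedlings, as in the sample labels.

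The smallest step of a library's values was taken as 1 read and gave its total reads, the denominator of the RPM. Whether that total counts sequenced or mapped reads cannot be told from the values. Summed coverage divided by 50 gave the reads of a locus. Read positions were recovered as the whole numbers of 50 nt reads with the least absolute deviation from the coverage, which gave 3249 reads in flowers and 4247 in seedlings in place of 3243 and 4241. Positions were taken as counted from 1: at 1966 pairs of IR71 places with the same 50 bases, 6.88% of reads in flowers and 5.89% in seedlings then had no partner, against 73.3% and 72.5% when counted from 0. The annotated bounds of the TAS genes and of MIR822 lie 1 base after the first and last positions given, which would go with counting from 0. Shares carry exact Clopper-Pearson intervals, odds and level ratios exact conditional intervals, mean distances a normal interval from their SE, and 3 reads were the floor for a count of 0. Arms were found with blastn 2.17.0, and sites as the best match to the annotated microRNA. Python 3.11.15, numpy 2.4.6 and scipy 1.17.1 were used, and the procedures were tested on simulated reads.

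All 10 loci are named, and within them the highest 50 nt bins, the bins that differ most, the most used reads, the arms and the microRNA sites. Loci, classes and windows were chosen with earlier results of these data known. Alternatives covered reads of several places, the total, WT subtraction, length, bins and duplicates.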

Additional observations from a re-analysis of the deposited data

Results flagged for a closer look

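Some differences between flowers and seedlings had opposite directions in the 2 tagged forms, each by its own counting interval. The difference between the forms was not tested, and each ratio sets 1 library against 1. The IR71 level of flowers over seedlings was 0.573 with DCL4-6:FHA and 8.23 with DCL4-8:FHA, and the odds ratio of its share was 0.421 with DCL4-6:FHA and 5.70 with DCL4-8:FHA. For miR822 the odds ratio of the share was 1.33 with DCL4-6:FHA and 0.212 with DCL4-8:FHA. The DCL4-6:FHA direction of miR822 depended on IR71 in the total. Without IR71 its log2 odds ratio was -0.463 (-0.676 to -0.251), and its level ratio of 1.10 was not told apart from 1. The fold-back class, most of whose reads are IR71 in DCL4-6:FHA, had level ratios of 0.836 with DCL4-6:FHA and 4.56 with DCL4-8:FHA, and share odds ratios of 0.837 with DCL4-6:FHA and 3.21 with DCL4-8:FHA.

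Along IR71 the direction also differed, in windows that were set after the profiles had been seen. The odds ratio of reads within 250 nt of the loop was 1.42 with DCL4-6:FHA and 0.471 with DCL4-8:FHA. That of reads 150 to 250 nt from the loop, a part of the same stretch, was 1.84 with DCL4-6:FHA and 0.577 with DCL4-8:FHA. That of reads 1200 to 2200 nt from the loop was 0.838 with DCL4-6:FHA and 1.52 with DCL4-8:FHA.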

How the results depend on the processing

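IR2039, TAS3a and TAS3b were higher in flowers in share and in level under every alternative that gave them an interval. The number of loci higher in share, 5 in the comparison as reported, was 3 without IR71 in the total, 3 with each distinct read position counted once and 3 with the highest coverage in place of the sum. The number lower in share, 3, was 1 with distinct positions (IR71) and 1 with WT subtracted (IR71). It was 2 with the highest coverage, where IR71 lost its call in share (log2 odds ratio -0.34, -0.78 to 0.084) and in level (-0.34, -0.75 to 0.061), and 2 without miR822 or without TAS2; TAS2 lost its call without miR822. The log2 odds ratio of the fold-back class, -0.26, was 0.72 without IR71, 0.094 with mean coverage per base and 0.25 with the highest coverage, -0.48 with distinct positions and -0.91 without TAS2. That of miR822, 0.41, was -0.46 without IR71 and -0.23 with the highest coverage. TAS2 turned with distinct positions, to a log2 odds ratio of 0.39 and a log2 level ratio of 0.27, both not told apart from 0. The causes were not tested. The median overlap of profiles stayed between 83.4% and 85.1%. Median coverage gave a level only at IR71, IR2039 and miR822, and no count of called loci was made for it or for coverage per base. No paired analysis was possible because each group has 1 library. TAS1a, TAS1b, TAS1c and TAS3b rest on 2 to 85 reads, and the shallow WT seedling library limits what can be subtracted.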
